A study of Homo sapiens with 6 samples.

Results

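The genes described here encode the machinery that docks, primes and fuses secretory vesicles: SNARE proteins, synaptotagmins, priming factors, and the Rab proteins and membrane proteins that work with them. They were chosen by gene symbol, with earlier results of these data known. The rule took the SYT, SYTL, STX, STXBP, VAMP, RIMS, CPLX, SNAP and UNC13 families. Their symbols had to end in a number, or in a number and a letter from A to D. Added were CADPS, CADPS2, NSF, NAPA, NAPB, DOC2A, DOC2B, RPH3A, RPH3AL and the RAB3 and RAB27 genes, with SV2A, SV2B, SYN1, SYN2, SYP and EXOC6. This gave 89 of the 26485 symbols in the count table. The symbol rule also took in SNAP91, an endocytic clathrin adaptor that is no SNARE. RNA was sequenced from EndoC-βH1, an established human pancreatic beta cell line. Every culture carried the lentiviral Cas9 vector lentiCRISPRv2 and had been grown as a stable line after antibiotic selection. The 3 libraries labelled Empty came from cells with the vector alone and genotype WT, and the 3 labelled sgZHX3-3 from cells with a single guide RNA against the first coding exon of ZHX3, a zinc finger and homeobox transcription factor, labelled ZHX3 KO. The comparison asks how expression differs where ZHX3 was targeted. Because a single guide was used, the effect of losing ZHX3 and any other effect of that guide or of its line cannot be told apart. The titles number biological replicates 1 to 3, and nothing in the labels says that they were separate lines, so p-values measure the spread between these samples.

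Insulin is stored in dense-core granules that fuse with the plasma membrane when calcium enters the cell. Fusion is driven by SNARE proteins, in which a vesicle SNARE (a VAMP protein) zips together with target-membrane SNAREs (a syntaxin and a SNAP25-like protein). Syntaxin-binding proteins and priming factors assemble this complex, complexins and synaptotagmins tie it to calcium, Rab3 and Rab27 bring the granule to the membrane, and NSF with its adaptors takes the spent complex apart. Other syntaxins and VAMP proteins run membrane traffic between the endoplasmic reticulum, the Golgi and endosomes.

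Totals were 45101454 to 61051884 counts per library. ZHX3 RNA was 106, 110 and 101 CPM (counts scaled to library size with trimmed-mean-of-M factors) in Empty libraries 1, 2 and 3, and 167, 180 and 183 CPM in the sgZHX3-3 libraries. It was higher, by 0.75 on the log2 scale (SE 0.0566, edgeR adjusted p = 1.62e-05), so the RNA does not show a loss, and the groups are named here by their labels. The Empty libraries were not alike. Along principal component 1, which held 43.6% of the variance, Empty 1 was at −6.34, Empty 2 at −19.9 and Empty 3 at −23.8. There sgZHX3-3 spanned 12.3 to 22.1. By chi-square per gene between libraries (it grows with depth), Empty 2 and 3 were closest (3.63), then sgZHX3-3 libraries 1 and 2 (4.56). Other pairs within a group were at 12.9 to 23.3. Empty 1 was nearer to sgZHX3-3 library 1 (18.9) than to Empty 2 (23.3) or Empty 3 (22.3). The tests treat the 3 libraries of a group as equally independent, and whether they were was not tested. The summed level of 10 stress genes (heat shock and oxidative stress) was 969 CPM in Empty 1, 1745 and 1988 CPM in Empty 2 and 3, and 641.0 to 726 CPM in sgZHX3-3, and 7 of the 10 were lower in sgZHX3-3. Of 12 beta cell genes all were detected and 7 were higher in sgZHX3-3. Their summed levels, mostly CHGA, were 31700 to 39800 CPM in Empty and 36860 to 44970 CPM in sgZHX3-3. CHGA (0.23, edgeR adjusted p = 0.152) and INS (0.19, 0.219) were not called. Other endocrine and neuronal cells carry the same machinery. The 5 alpha cell genes summed to 1136 to 1366 CPM in Empty and 1264 to 1386 CPM in sgZHX3-3, mostly TTR, with 1 higher and 1 lower. The 4 delta cell genes summed to 18.2 to 24.6 CPM and 22.3 to 24.8 CPM. Of these RBP4 was higher (0.60, edgeR adjusted p = 0.00443). The hormone gene SST (−0.01, edgeR adjusted p = 0.976), LEPR (−0.03, 0.888) and HHEX (−0.42, 0.506) had negative differences and were not called. Of 5 neuronal genes NEUROD6 was at 0 and SLC17A7 and GAD1 were under 1 CPM everywhere. SLC17A6, the only 1 of the 4 tested that was called, was at 34.8 to 40.6 CPM in Empty and 47.2 to 49.2 CPM in sgZHX3-3. RBFOX3 was at 2.16 to 3.14 CPM in Empty and 3.45 to 4.70 CPM in sgZHX3-3 and was not called (0.49, edgeR adjusted p = 0.0815). The summed neuronal level was 40.4 CPM in Empty 2, 38.0 CPM in Empty 3 and higher in Empty 1, though below all sgZHX3-3 libraries (52.2 to 54.4 CPM). Summed endothelial markers reached at most 0.0802 CPM. The 4 immune genes summed to 12.6 to 17.8 CPM in Empty and 17.3 to 21.2 CPM in sgZHX3-3, nearly all CD68, with CD3E at 0 and none called. The 4 acinar genes summed to 33.1 to 38.6 CPM and 42.1 to 45.2 CPM, nearly all CPA1, which was higher (edgeR adjusted p = 0.0145). PRSS1 and CELA3A had at most 1 count in any library and PNLIP had 0. The 4 ductal genes summed to 63.2 to 70.8 CPM and 68.8 to 73.4 CPM with none called. The 6 fibroblast genes summed to 5.87 to 6.56 CPM and 6.35 to 8.53 CPM, mostly COL1A1, with none called. The part of the stress genes and of these markers in the results below was not tested.

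The levels show which paralogues were most abundant as RNA. Levels between genes are given as CPM per kilobase of merged exon, averaged over the 6 libraries. Merged exons include annotated exons that the line may not use, so the order of genes is approximate. SYP (synaptophysin, a vesicle membrane protein) was the most abundant member at 155, followed by the synaptotagmins SYT13 at 102 and SYT4 at 85.0 and by the target-membrane SNARE SNAP25 at 71.7. SYT7, a calcium sensor of high affinity that is known in insulin granule fusion, stood at 59.4, and the GTPase RAB3B at 56.3. Among vesicle SNAREs the order was VAMP3 at 35.3, VAMP2 at 27.4 and VAMP7 at 26.2. The priming factors UNC13A and CADPS stood at 28.5 and 26.3, while RIMS3 and RIMS2, which sit at release sites, were at 5.14 and 5.08. The classical fast synaptic calcium sensor SYT1 was low at 0.611, and SYT9 stood at 1.18. The Rab27 effector SYTL4 (granuphilin) had at most 1 count in any library. It was among 10 members that did not pass the filter on low counts. The others were RIMS1, STX19, SYN2, SYT6, SYT8, SYT10, SYT12, SYT15 and UNC13C, with at most 9 counts in any library and with SYT8, SYT10 and UNC13C at 0 in all 6. For a gene at 0, a floor of 3 counts allows up to 0.0498 to 0.0671 CPM, depending on the library, for counting error only.

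**Figure D1:**
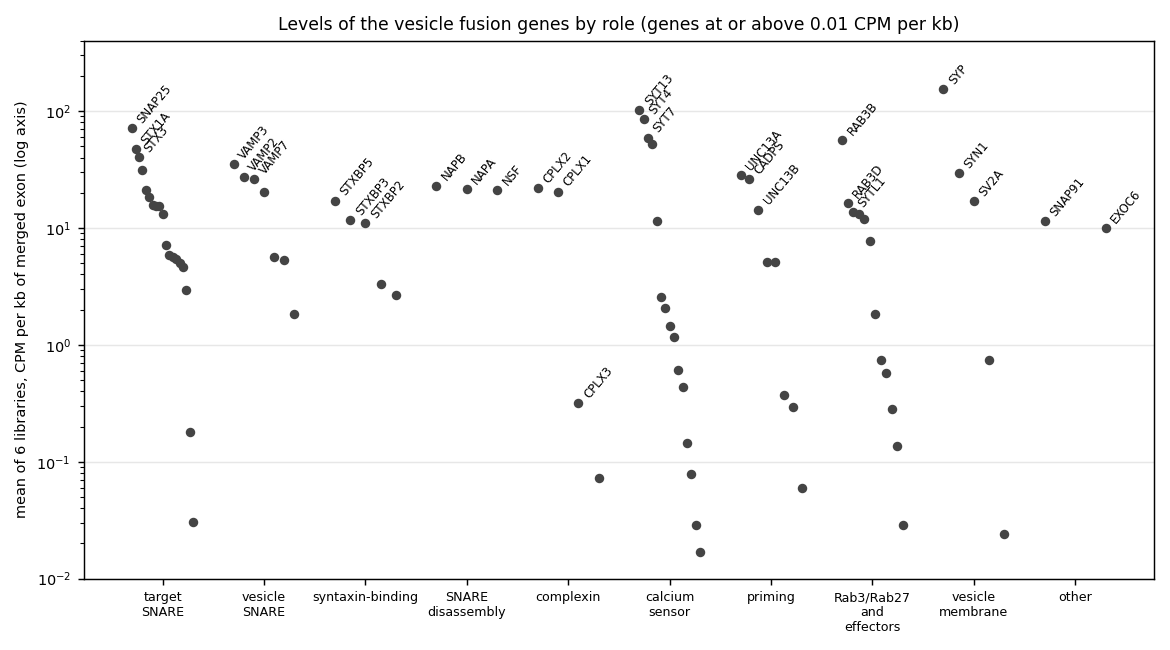
Level of the members in CPM per kilobase of merged exon (log axis), as the mean of the 6 libraries, grouped by role and in falling order within it; each point is 1 gene and the top 3 shown of each role are named. SYP is highest at 155, and most roles hold both abundant genes and paralogues under 1.

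Of the 79 tested members 9 were higher in sgZHX3-3 and 4 were lower at an adjusted p below 0.05, and 66 did not pass. The share called was 11.4% higher against 7.11% of all 16199 tested genes, and 5.06% lower against 4.98%, so the count of calls among the members was near that of the whole table. The higher members were CADPS, UNC13A, RIMS2, RIMS3, CPLX2, STX1A, RAB3B, RPH3AL and SV2B, and the lower ones STX5, STX12, STXBP3 and STX11. The median log2 difference of the members was 0.04, beside −0.002 for all tested genes. The 3 Empty and the 3 sgZHX3-3 values did not overlap in 28 members (35.4%), beside 32.0% of all tested genes. The called differences were small: from 14.4% (RIMS2) to 35.6% (SV2B) among the higher members, and from −15.4% (STX5) to −14.3% (STX12) among the lower members other than STX11. In bulk RNA a change in the number of cells that express a gene and in the RNA per cell cannot be told apart.

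**Figure D2:**
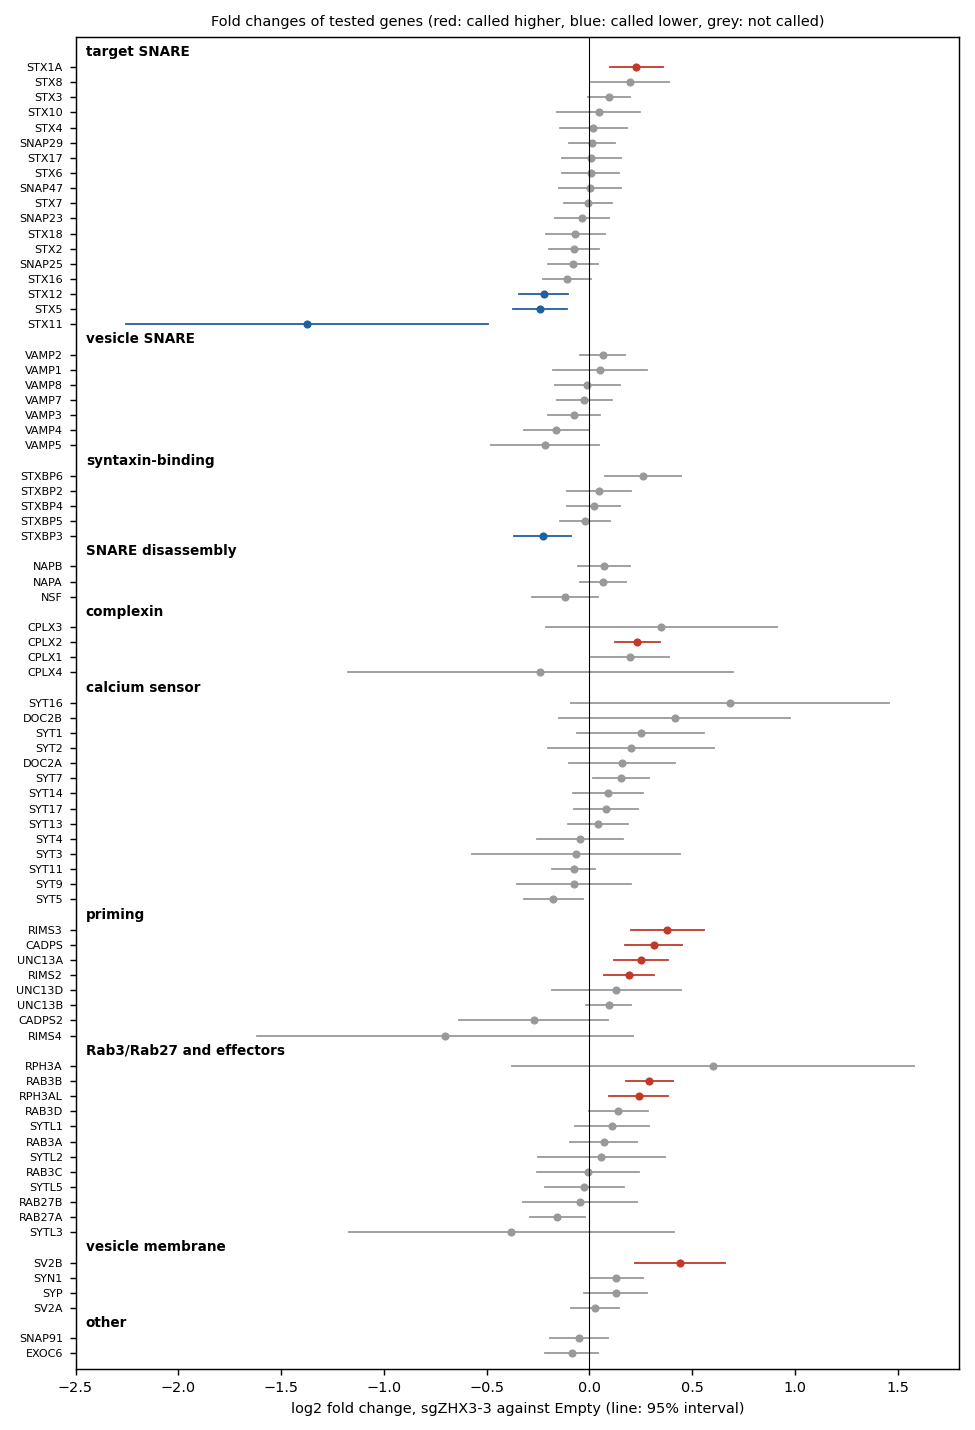
Log2 difference of the tested members, sgZHX3-3 minus Empty, with its 95% interval as a line, ordered by role; red marks members called higher, blue those called lower and grey those that did not pass. Most intervals cross 0, and 4 of the 8 tested priming genes lie above 0 as calls.

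Of the 8 tested priming genes 4 were higher and 0 lower, with a median of 0.16, beside 7.11% higher and 4.98% lower over all tested genes. Of these 4, CADPS and RIMS2 were not called after correction for gene span (adjusted p 0.344 and 0.215). CADPS (chr3:62398346-62875389, minus strand, GRCh38), which primes dense-core granules for fusion, was at 382, 329 and 319 CPM in Empty and at 427, 430 and 422 CPM in sgZHX3-3. The sgZHX3-3 libraries lay close together and above all Empty libraries, of which Empty 1 was the nearest. The difference was 0.31 (SE 0.0644, adjusted p = 0.00835), from 343 ± 33.8 to 427 ± 4.03 CPM (SD, n = 3 each). UNC13A (chr19:17601328-17688365, minus strand), which opens syntaxin so that the SNARE complex can form, was at 283, 305 and 285 CPM in Empty and at 319, 347 and 372 CPM in sgZHX3-3. These groups did not overlap, and the sgZHX3-3 libraries were spread more widely (291 ± 11.8 against 346 ± 26.8 CPM, SD, n = 3 each). UNC13A rose by 0.25 (SE 0.0612, adjusted p = 0.0196). Its paralogue UNC13B was at 255, 253 and 236 CPM and at 260, 264 and 270 CPM, with a difference of 0.09 (95% interval −0.02 to 0.20, adjusted p = 0.256). UNC13A made up 64.7% ± 1.05 of the summed per-kilobase level of the UNC13 genes in Empty and 67.1% ± 1.24 in sgZHX3-3 (SD, n = 3 each). The difference between the paralogues was not itself tested.

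RIMS3 (chr1:40620679-40665657, minus strand), a short RIM protein, had the largest log2 difference of the called priming genes. It was at 31.8, 31.0 and 34.1 CPM in Empty and 45.4, 44.2 and 36.5 CPM in sgZHX3-3, with replicate 3 of each group the closest pair. The difference was 0.38 (SE 0.0823, adjusted p = 0.0114). RIMS2, a longer RIM protein that links Rab3 on the vesicle to UNC13 proteins, was at 62.0, 67.1 and 64.6 CPM in Empty and 76.2, 74.6 and 70.9 CPM in sgZHX3-3, a difference of 0.19 (SE 0.0564, adjusted p = 0.0412). RIMS2 and RIMS3 each made up about as much of the RIM level as the other, at 51.1% ± 1.76 and 48.1% ± 1.71 in Empty and 48.2% ± 2.13 and 51.4% ± 1.99 in sgZHX3-3. RIMS4 was under 1 CPM, and CADPS2, the paralogue of CADPS, was at 1.43 to 2.14 CPM with a difference of −0.27 (95% interval −0.63 to 0.09, adjusted p = 0.319). CADPS therefore held 98.7% of the CADPS family level in Empty and 99.1% in sgZHX3-3.

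Among the complexins, small proteins that bind the assembled SNARE complex, CPLX2 (chr5:175796310-175884020, plus strand) was higher and the other 3 did not pass. CPLX2 was at 139, 141 and 147 CPM in Empty and at 172, 168 and 163 CPM in sgZHX3-3, with no overlap and a difference of 0.23 (SE 0.0513, adjusted p = 0.0119). CPLX1, which was as abundant per kilobase (20.5 against 21.8), had overlapping groups at 49.98, 42.7 and 46.01 CPM and 46.2, 52.8 and 59.7 CPM, and a difference of 0.20 (95% interval 0.01 to 0.39, adjusted p = 0.162). Without sgZHX3-3 library 1 CPLX1 passed (adjusted p = 0.0473).

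Of the 19 tested target-membrane SNAREs 1 was higher and 3 were lower, beside 7.11% and 4.98% over all tested genes. STX1A (chr7:73699206-73719672, minus strand), the plasma membrane syntaxin of regulated exocytosis, was at 172, 154 and 155 CPM in Empty and at 178, 188 and 197 CPM in sgZHX3-3. Empty 1 lay just under the lowest sgZHX3-3 library, and the difference was 0.23 (SE 0.0602, adjusted p = 0.0278). Of its exon bases 17.9% lie under an exon of BUD23 on the opposite strand, and no source used here tells whether reads were assigned by strand. Its counts are therefore uncertain, by an amount that the share of bases does not give. The partner SNAP25 was at 255, 249 and 238 CPM in Empty and 247, 236 and 220 CPM in sgZHX3-3 and did not pass. Its 95% interval was −0.20 to 0.04, beside 0.10 to 0.36 for STX1A, and the difference between these genes was not itself tested. STX3, another granule syntaxin, was at 252 to 262 CPM in Empty and 269 to 279 CPM in sgZHX3-3, a difference of 0.10 that did not pass (adjusted p = 0.211).

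Of the 4 lower members 2 are syntaxins of internal membranes, 1 is a syntaxin of the plasma membrane and 1 binds such a syntaxin. STX5 (chr11:62806897-62832088, minus strand), the syntaxin of traffic between endoplasmic reticulum and Golgi, was at 48.7, 54.3 and 53.2 CPM in Empty and 42.9, 44.1 and 45.3 CPM in sgZHX3-3 (−0.24, SE 0.0610, adjusted p = 0.0233). STX12 (chr1:27773183-27824452, plus strand), a syntaxin of recycling endosomes, was at 75.0, 76.3 and 75.9 CPM in Empty and 68.6, 64.3 and 62.0 CPM in sgZHX3-3 (−0.22, SE 0.0560, adjusted p = 0.0224). Neither gene had overlapping groups, and the Empty values of STX12 lay close together (75.8 ± 0.660 CPM, SD, n = 3). STXBP3 (chr1:108746674-108809526, plus strand), the Munc18c protein that binds the plasma membrane syntaxin STX4, was at 70.1, 76.0 and 76.8 CPM in Empty and 66.9, 64.8 and 58.8 CPM in sgZHX3-3 (−0.23, SE 0.0636, adjusted p = 0.0354). STX4 itself was at 17.5 to 20.4 CPM over all libraries (0.02, 95% interval −0.14 to 0.18). STX11, a syntaxin known from granule release in lymphocytes, was barely detected, with 14, 27 and 37 counts in Empty and 7, 8 and 15 in sgZHX3-3 (−1.37, SE 0.408, adjusted p = 0.0455), and limma-voom did not call it (0.0546).

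Among the other syntaxin-binding proteins STXBP6, a tomosyn-like inhibitor also called amisyn, was at 19.5 to 19.6 CPM in Empty and 20.4 to 25.9 CPM in sgZHX3-3 and did not pass (0.26, adjusted p = 0.0648), but passed with DESeq2 (0.0377), with no expression filter (0.0482) and without sgZHX3-3 library 3 (0.0125).

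The start regions of 4 called members are printed so that the searched letters can be seen in place: STX5, STX12 and STXBP3 are the lower members that hold TGACG, and CADPS is the only higher member with an entry that holds CCAAT, which STX5 and STX12 hold as well. They are RefSeq promoters of GRCh38.p14, from 250 bases before to 50 after the annotated start, and 70 of 89 members had an entry. Capitals mark CCAAT (the NF-Y box) and TGACG (part of the cAMP response element), searched on both strands, so that ATTGG and CGTCA are the same motifs read backwards; the full palindrome TGACGTCA was added after the sequences were seen, and each copy holds 2 overlapping TGACG matches. The windows are chr3:62875367-62875666 (minus strand) for CADPS, chr11:62832002-62832301 (minus) for STX5, chr1:27772969-27773268 (plus) for STX12 and chr1:108746424-108746723 (plus) for STXBP3.
CADPS: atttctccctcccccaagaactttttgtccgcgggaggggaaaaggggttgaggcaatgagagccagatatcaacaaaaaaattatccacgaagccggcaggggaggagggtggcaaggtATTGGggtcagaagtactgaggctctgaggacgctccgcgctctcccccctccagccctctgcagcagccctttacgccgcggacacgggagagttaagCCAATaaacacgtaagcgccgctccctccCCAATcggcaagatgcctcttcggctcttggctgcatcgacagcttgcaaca
STX5: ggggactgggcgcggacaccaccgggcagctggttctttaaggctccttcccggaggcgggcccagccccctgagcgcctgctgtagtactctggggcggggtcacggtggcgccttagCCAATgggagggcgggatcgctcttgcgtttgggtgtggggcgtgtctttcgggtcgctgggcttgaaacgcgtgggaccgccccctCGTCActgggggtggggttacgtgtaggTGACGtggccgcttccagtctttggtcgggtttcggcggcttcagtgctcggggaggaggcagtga
STX12: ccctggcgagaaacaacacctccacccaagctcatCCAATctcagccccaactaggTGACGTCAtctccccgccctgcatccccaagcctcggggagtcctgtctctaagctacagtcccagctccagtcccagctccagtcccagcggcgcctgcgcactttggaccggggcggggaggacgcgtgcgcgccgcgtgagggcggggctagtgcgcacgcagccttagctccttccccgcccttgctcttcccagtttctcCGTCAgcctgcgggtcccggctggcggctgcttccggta
STXBP3: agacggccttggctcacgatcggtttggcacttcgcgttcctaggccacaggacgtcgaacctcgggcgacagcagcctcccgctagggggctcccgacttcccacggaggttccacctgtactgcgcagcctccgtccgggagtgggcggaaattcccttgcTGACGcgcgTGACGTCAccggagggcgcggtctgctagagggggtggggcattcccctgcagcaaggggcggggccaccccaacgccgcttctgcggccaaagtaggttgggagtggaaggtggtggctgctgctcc
CADPS had 3 CCAAT and 0 TGACG matches, STX5 had 1 and 2, STX12 had 1 and 3, and STXBP3 had 0 and 3. TGACG occurred in 33.2% of the 11548 promoters of tested genes, in 35.5% of the 62 tested members with a promoter, in 26.1% of the 823 genes that were higher and in 42.2% of the 631 that were lower. CCAAT occurred in 36.0%, 22.6%, 32.9% and 46.9% of the same sets, the E-box CACGTG in 9.85%, 12.9%, 12.3% and 7.61%, and TGACGTCA in 3.12%, 4.84%, 2.67% and 5.71%. Over all 27305 promoters in the table the shares were 35.7% for CCAAT, 7.43% for CACGTG, 6828 promoters for TGACG and 1.98% for TGACGTCA. Of the lower members 3 of 4 held TGACG and 2 of 4 TGACGTCA, and of the 7 higher members with an entry 2 held TGACG and 1 held CCAAT. A match is a run of letters and says nothing of binding.

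Vesicle SNAREs and the disassembly proteins held 0 calls in either direction, of 7 and 3 tested. With 7.11% higher and 4.98% lower over all tested genes, 0 calls among so few genes is near those shares. VAMP2, the insulin granule SNARE, was at 88.4, 87.4 and 87.0 CPM in Empty and 92.9, 90.3 and 91.8 CPM in sgZHX3-3, a difference of 0.07 with a 95% interval of −0.04 to 0.17. VAMP3 and VAMP7, found on endosomes and lysosomes, had differences of −0.07 (−0.20 to 0.05) and −0.02 (−0.16 to 0.11). NSF, the ATPase that separates used SNARE complexes, differed by −0.12 (−0.28 to 0.04) and its adaptors NAPA and NAPB by 0.07 each. NSF has near-identical copies in the genome that can share its reads, so its level is uncertain. DESeq2 and limma-voom called 0 of them too. Of these 10 genes 1 had an unadjusted p below 0.05 (VAMP4, −0.16, adjusted p = 0.157).

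No synaptotagmin or DOC2 gene passed. Of 14 tested genes 0 were called in either direction by edgeR, DESeq2 or limma-voom, and 2 (SYT5 and SYT7) had an unadjusted p below 0.05 by edgeR. Over all tested genes edgeR called 7.11% higher and 4.98% lower, so 0 of 14 is near those shares. These genes were grouped as calcium sensors by symbol, and not all of them bind calcium. SYT7 was at 345, 329 and 331 CPM in Empty and 344, 363 and 409 CPM in sgZHX3-3 (0.15, 95% interval 0.02 to 0.29, adjusted p = 0.131). SYT13, which lacks the residues that bind calcium, was at 584, 525 and 524 CPM and at 521, 546 and 613 CPM (0.04, −0.10 to 0.19), so its libraries were mixed. SYT4 ranged widely within Empty, at 455, 360 and 334 CPM with Empty 1 the highest of the 6 libraries, against 369, 356 and 388 CPM (−0.05, −0.26 to 0.17). SYT11 was at 276 to 283 CPM in Empty and 259 to 271 CPM in sgZHX3-3, groups that did not overlap although the difference did not pass (−0.08, −0.18 to 0.03). SYT5, a calcium sensor found on dense-core granules, was at 70.5, 62.7 and 62.4 CPM in Empty and 55.4, 56.1 and 61.5 CPM in sgZHX3-3 (−0.18, −0.32 to −0.03, adjusted p = 0.102), and passed only on plain library totals (−0.21, 0.0479). SYT13, SYT4, SYT7 and SYT11 together made up most of the synaptotagmin level, at 31.9%, 27.3%, 17.9% and 16.9% in Empty and 32.5%, 26.3%, 19.7% and 15.9% in sgZHX3-3.

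In the Rab3 and Rab27 group 2 of 12 tested genes were higher and 0 lower, beside 7.11% and 4.98% over all tested genes. RAB3B (chr1:51907956-51990764, minus strand), a vesicle GTPase and the main Rab3 gene of this line, was at 636, 676 and 638 CPM in Empty and at 765, 790 and 834 CPM in sgZHX3-3. Every sgZHX3-3 library was above every Empty library, from 650.2 ± 22.6 to 796 ± 35.4 CPM (SD, n = 3 each). The difference was 0.29 (SE 0.0531, adjusted p = 0.00423), the smallest adjusted p among the members. RAB3B held 68.0% ± 1.49 of the Rab3 level in Empty and 70.7% ± 0.258 in sgZHX3-3. Its paralogues did not pass: RAB3A was at 13.1 to 14.7 CPM over all libraries (0.07), RAB3C at 6.34 to 8.30 CPM (−0.01) and RAB3D at 65.4 to 73.7 CPM in Empty and 72.6 to 81.5 CPM in sgZHX3-3 (0.14, adjusted p = 0.185; 0.0457 without Empty 1). RPH3AL (Noc2; chr17:212389-386254, minus strand), a Rab3 and Rab27 effector of endocrine cells, was at 71.6, 64.3 and 61.5 CPM in Empty and 76.6, 74.5 and 81.8 CPM in sgZHX3-3 (0.24, SE 0.0659, adjusted p = 0.0332). RAB27A, the Rab of docked granules, was at 75.2, 81.0 and 78.1 CPM in Empty and 74.5, 70.8 and 65.0 CPM in sgZHX3-3, without overlap and without a call (−0.16, 95% interval −0.29 to −0.02, adjusted p = 0.119).

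Among vesicle membrane proteins SV2B was higher and SV2A, SYN1 and SYP did not pass. SV2B (chr15:91099950-91301309, plus strand), a transporter-like glycoprotein of secretory vesicles, was at 7.44, 8.45 and 7.56 CPM in Empty and 11.2, 11.3 and 9.44 CPM in sgZHX3-3 (0.44, SE 0.101, adjusted p = 0.0150). It was scarce beside SV2A, at 0.741 against 16.98 CPM per kilobase, and SV2A was at 79.9 to 81.9 CPM in Empty and 79.02 to 84.9 CPM in sgZHX3-3 (0.03, −0.09 to 0.14). SYP was at 866, 715 and 739 CPM in Empty and 806, 841 and 885 CPM in sgZHX3-3 (0.13, adjusted p = 0.260), and passed without Empty 1 (0.0124), the library in which it was high. SYN1, a synapsin that tethers vesicles to the cytoskeleton, differed by 0.13 (0.00 to 0.26, adjusted p = 0.168). EXOC6, an exocyst subunit, and SNAP91 differed by −0.09 and −0.05 and did not pass.

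**Figure D3:**
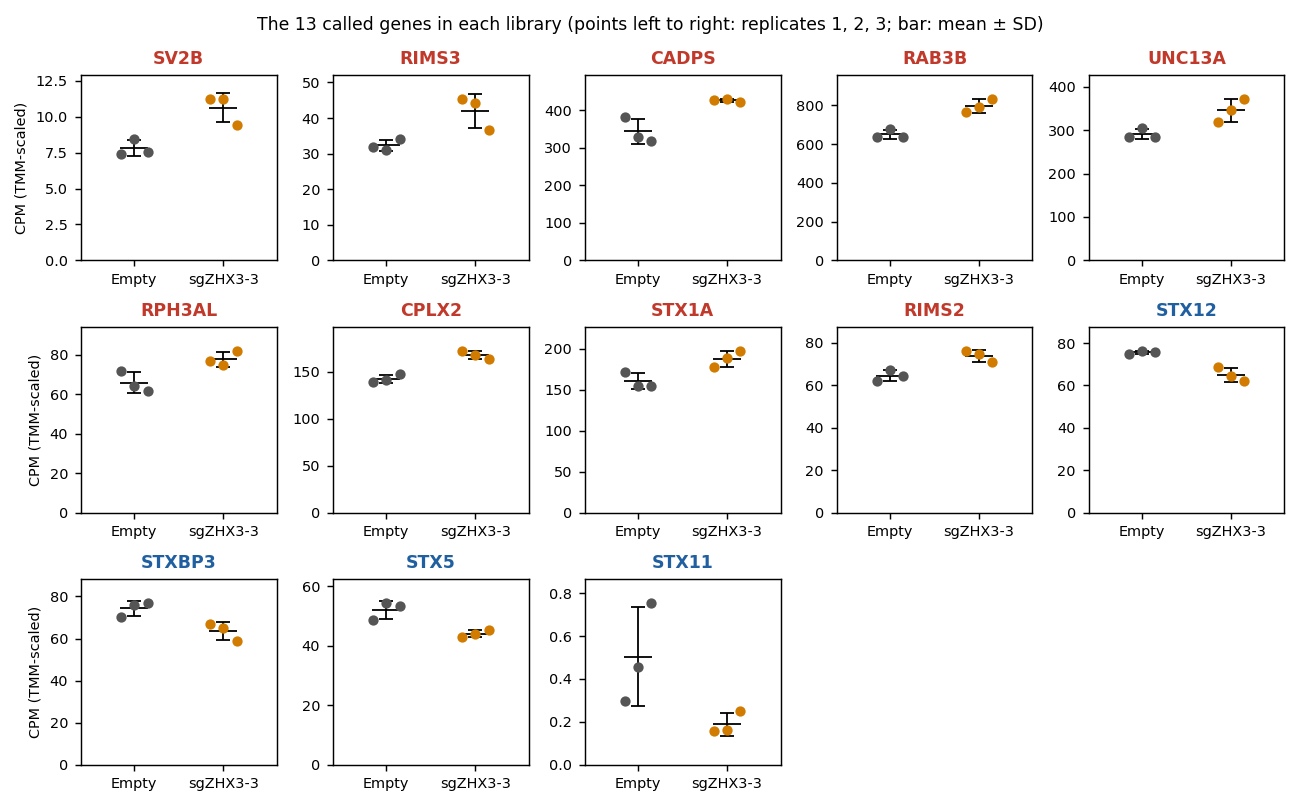
CPM of each of the 13 called members (linear axis from 0); points are libraries 1, 2 and 3 from left to right, with the mean ± SD of each group as bars, red names for higher and blue for lower members. No gene has overlapping groups, and most differences are small beside the level; for STX5, STXBP3 and STX11 Empty 1 is the Empty library nearest to sgZHX3-3.

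Over the 9 higher members the mean log2 deviation from the 6-library mean was −0.13, −0.13 and −0.16 in Empty and 0.14, 0.16 and 0.13 in sgZHX3-3. Over the 4 lower members it was 0.03, 0.17 and 0.26 in Empty and −0.14, −0.16 and −0.15 in sgZHX3-3. That mean leans on STX11, which had few counts and the largest difference. Empty 1 was the Empty library nearest to sgZHX3-3 for STX5, STXBP3 and STX11 and for the higher members CADPS, STX1A and RPH3AL, while the Empty values of STX12 lay close together. When both Empty 2 and Empty 3 were dropped, 1.5% of 16640 tested genes were called and 0 of the members were. Empty was then represented by 1 library, assumed to vary like the others. All 13 members called with all 6 libraries kept their sign there, and 7 of the 13 were smaller in size. Those that shrank most were CADPS (0.16, adjusted p = 0.301), STX1A (0.13, 0.495), RPH3AL (0.12, 0.568) and STX11 (−0.63, 0.686), and STX5 (−0.14, 0.483) and STXBP3 (−0.14, 0.505) shrank as well. UNC13A (0.29, 0.159), RIMS2 (0.25, 0.177), RIMS3 (0.40, 0.154), CPLX2 (0.27, 0.115), RAB3B (0.33, 0.0683) and SV2B (0.51, 0.129) were larger, and STX12 was at −0.21 (0.291).

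RAB3B kept its call with each library left out in turn (adjusted p 0.00342 to 0.0318), and the other 12 called members lost theirs without at least 1 library. CADPS lost it without Empty 3 (0.0560). RIMS3 lost it without Empty 2 (0.0584) and sgZHX3-3 library 2 (0.0701), CPLX2 without the same libraries (0.0616 and 0.0724), and SV2B without Empty 3 (0.0719) and sgZHX3-3 library 2 (0.0872). UNC13A lost it without Empty 3 (0.0959) and sgZHX3-3 libraries 2 (0.0891) and 3 (0.0607). RIMS2 lost it without Empty 2 (0.0789), Empty 3 (0.145) and sgZHX3-3 libraries 1 (0.103) and 2 (0.162), and STX5 without the same libraries (0.128, 0.122, 0.0636 and 0.105). STX1A lost it without Empty 2 (0.130), Empty 3 (0.139) and sgZHX3-3 libraries 2 (0.114) and 3 (0.0825). STX12 (0.0942, 0.104, 0.115 and 0.0591) and STXBP3 (0.138, 0.165, 0.109 and 0.101) lost theirs without those 4 libraries too. RPH3AL and STX11 passed only without Empty 1 (0.00371 and 0.0132). Without the others RPH3AL was at 0.135 and 0.177 (Empty 2 and 3) and 0.0582, 0.0819 and 0.101 (sgZHX3-3), and STX11 at 0.104, 0.233, 0.106, 0.150 and 0.0743. On plain library totals RIMS2 (0.0887) and RPH3AL (0.0547) lost their call, and over all genes the higher share of the calls went from 58.8% to 41.5%.

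**Figure D4:**
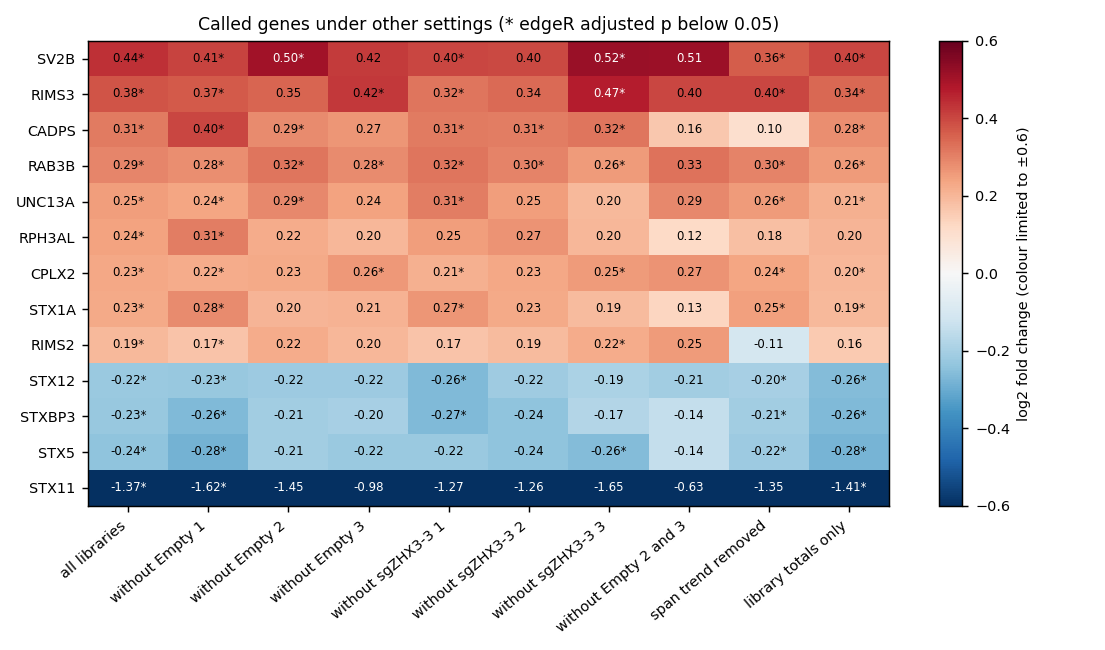
Log2 difference of the 13 called members (rows) under the main setting and 9 others (columns), red for higher and blue for lower, with a star where the adjusted p is below 0.05; the colour is limited to 0.6 in either direction. RAB3B lacks its star only without Empty 2 and 3, and RIMS2 is blue with the span trend removed.

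Long genes were more often higher in sgZHX3-3 over the whole table, which touches 2 of the called priming genes. Of 657 tested genes that span over 300 kb 32.3% were higher, beside 11.5% of those of 100 to 300 kb and 4.65% to 5.70% of shorter ones. CADPS spans 477 kb and RIMS2 755 kb, and these were the 2 higher genes among 7 tested members over 300 kb. With the trend over span removed, CADPS was at 0.10 (adjusted p = 0.344), RIMS2 changed sign to −0.11 (0.215), RPH3AL was at 0.18 (0.127) and STX11 at −1.35 (0.0531), so none of these was called. UNC13A, RIMS3, CPLX2, STX1A, RAB3B, SV2B, STX5, STX12 and STXBP3 were called there, which made 6 higher and 3 lower.

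**Figure D5:**
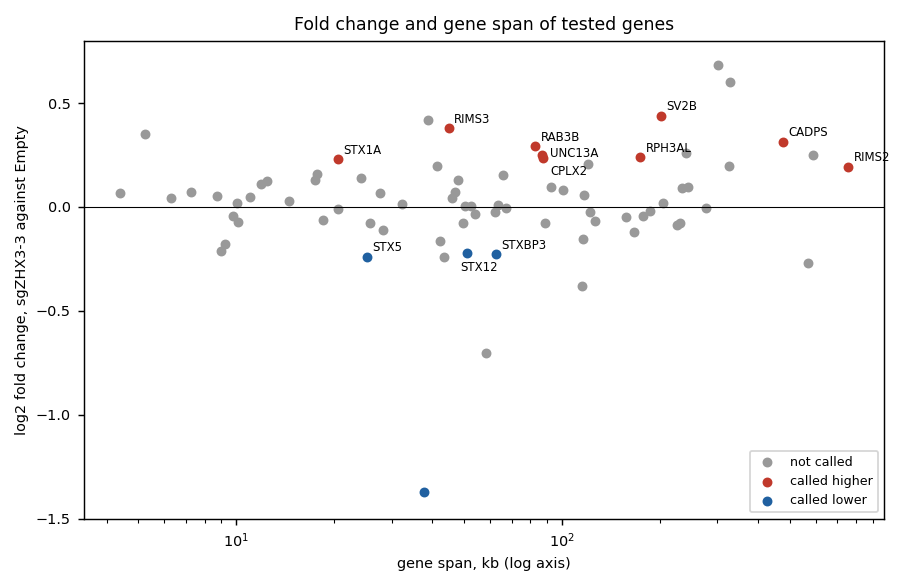
Log2 difference (sgZHX3-3 minus Empty) against gene span in kilobases on a log axis for tested members; each point is 1 gene, red if called higher, blue if called lower and grey otherwise. CADPS and RIMS2 lie at the right, over 300 kb, where the median of all tested genes is 0.19; the lowest point, without a name, is STX11.

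The other genes of the pathway, a list of 69 with 63 tested, held 5 higher (7.94%) and 4 lower (6.35%) with a median of 0.04, shares near those of all tested genes (7.11% and 4.98%). RIMBP2, an active zone scaffold that ties RIM proteins to calcium channels, was at 201, 185 and 171 CPM in Empty and 236, 235 and 242 CPM in sgZHX3-3 (0.36, SE 0.0606, adjusted p = 0.00252). It kept its call with each library left out in turn (0.000154 to 0.0198) and lost it with Empty 2 and 3 both left out (0.128). ERC1, another active zone scaffold, rose by 0.22 (0.0270), EXOC4, an exocyst subunit, by 0.24 (0.0181), NECAB2, a neuronal calcium-binding protein, by 0.38 (0.0145), and the ferlin FER1L5 by 0.28 (0.0394). ERC1 spans 505 kb and EXOC4 814 kb (813.5), and with the span trend removed they were at 0.00 (adjusted p = 0.995) and −0.07 (0.413). RIMBP2 spans 320 kb and was at 0.21 with the span trend removed, just within the call (adjusted p = 0.0469). The lower genes were BET1 (−0.34, 0.0108), a SNARE that pairs with STX5, and SCFD1 (−0.21, 0.0438), the Sec1-like partner of STX5, with VPS45 (−0.23, 0.0268), an endosomal Sec1-like protein, and TXLNB (−1.47, 0.0214), which was at 0.246 to 1.12 CPM. BET1 lost its call without Empty 3 (0.0685), NECAB2 without Empty 2 (0.0839) and Empty 3 (0.0730), ERC1 without Empty 3 (0.102) and sgZHX3-3 libraries 1 (0.0529) and 2 (0.146), and EXOC4 without Empty 2 (0.0844), Empty 3 (0.114) and sgZHX3-3 library 2 (0.0984). SCFD1 (0.151, 0.120, 0.111 and 0.109) and VPS45 (0.0731, 0.122, 0.138 and 0.0597) lost theirs without Empty 2, Empty 3 and sgZHX3-3 libraries 2 and 3. FER1L5 passed with all libraries and without sgZHX3-3 library 1, and was at 0.0619 to 0.125 without each of the others. TXLNB passed with all libraries and without Empty 1, and was at 0.0576 to 0.125 without each of the others. With neither Empty 2 nor Empty 3 in the fit none of the 9 was called by edgeR (0.0805 to 0.594).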

How the data were processed

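RNA of EndoC-βH1 cells was sequenced in 6 libraries. Per the submitters' processing notes, the tools were STAR and featureCounts and the build hg38; the sources used here do not give versions, annotation, strand mode or the handling of multiply matching reads. The authors deposited whole-number counts for each gene symbol, per the file headers, without normalisation. From these, filterByExpr of edgeR (minimum count 10, minimum total 15) kept 16199 genes, TMM factors were 0.984 to 1.02, and the robust quasi-likelihood test of edgeR was run over all genes with a group term alone, Benjamini-Hochberg adjusted and called at 0.05. The biological coefficient of variation was 6.91%, and a standard error is the fold change divided by the root of F. Gene spans, exon lengths and coordinates came from GENCODE 29 (GRCh38), which matched 90.3% of symbols and 89 of 89 members. Statistics went to ZHX3, to called members, to up to 3 members of each role by level, and to paralogues of called members. Members and lists were chosen with earlier results of these data known. Values of 2 members are not reported here, though the counts include them. Alternatives were other scaling, filters, tools, a replicate block, removal of a span trend (natural spline) and leaving out libraries. Computations used edgeR 4.0.16, DESeq2 1.42.0 and limma 3.58.1 in R 4.3.3, and Python 3.11.15, pandas 2.3.3 and matplotlib 3.10.9.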

Additional observations from a re-analysis of the deposited data

How the results depend on the processing

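Of 206 pairs of a called member and an alternative setting, 80 lost the call and 1 changed sign (RIMS2, −0.11 with the span trend removed; the cause was not tested). Among the 66 members that did not pass, 6 passed in some setting. Over all genes, 1151 were higher and 807 lower; plain library totals gave 1272 lower, an adjusted p below 0.01 gave 467 and 194, leaving out 1 library gave 474 to 1792 and 184 to 1499, and leaving out Empty 2 and 3 gave 209 and 40. For the members (9 and 4) the same settings gave 2 and 0 below 0.01, 2 to 12 and 0 to 4 without 1 library, and 0 and 0 without Empty 2 and 3. For the other exocytosis genes (5 and 4), plain totals gave 3 higher, the removed span trend 3 higher, an adjusted p below 0.01 gave 1 and 0, leaving out 1 library 1 to 4 and 0 to 5, and leaving out Empty 2 and 3 gave 1 and 0. The causes of these moves were not tested. With a replicate block the counts were 516 and 239 over all genes, 3 and 0 for the members, and 2 and 1 for the other list. The members called there were CADPS (edgeR adjusted p = 0.031), RAB3B (0.0285) and SV2B (0.0470). Same-numbered libraries of the 2 groups correlated at −0.138, 0.0685 and −0.142 (deviations from group means). No library correlated best with the library of its own number. With 3 libraries per group this cannot exclude that same-numbered libraries were grown or prepared together. The standard errors of the tested members (median 0.0699) leave log2 differences of their size undetectable.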
